A study of Mus musculus with 8 samples.

Results

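The genes described here are named as cyclins, cyclin-dependent kinases, kinase inhibitors, E2F factors and MCM proteins. Members of these families drive or restrain the cell cycle and DNA replication, but some kinases, such as *Cdk9*, are known for other roles. They were chosen by symbol from the GENCODE annotation of mm10, as protein-coding genes on chromosomes 1 to 19 named *Ccna*, *Ccnb*, *Ccnd* or *Ccne* with a number, *Cdk* or *Cdkn* with a number, *E2f* with a number, or *Mcm2* to *Mcm10*. This rule took 54 of 20807 protein-coding genes, namely 9 cyclins, 17 kinases, 8 inhibitors, 8 E2F genes, 9 MCM genes and 3 genes that match by spelling only (*Ccnb1ip1*, *Cdkn2aip* and *Cdkn2aipnl*). Symbols chose the members and no measured value entered the choice.

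ChIC-Seq was performed on primary uterine stromal cells (mUSCs) of WT mice on D4 to find where PBRM1, the BAF180 subunit of the PBAF form of the SWI/SNF remodeler, and BRG1, its ATPase, sit on chromatin. In this assay an antibody brings a micrococcal nuclease to its antigen in fixed cells, and the fragments that the nuclease releases are sequenced. Each antibody had 3 replicates, with 50000 cells and 5 minutes of fixation per library by the sample labels (the study's methods give ranges for both that differ from the labels), and the 2 IgG libraries were not analysed here. All libraries came from untreated WT females aged 8 to 12 weeks whose 5 to 10 uterine horns per preparation were digested and plated for a few hours, so that animals were pooled and no mutant entered these lists. The labels call the mice both pregnant and pseudopregnant on D4. The study calls the replicates biological, the labels do not say which mice or preparations each came from, and p-values measure the spread between these libraries.

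Cyclins are the regulatory partners that switch kinases of the CDK family on. D cyclins with CDK4 and CDK6 release E2F factors from RB proteins, E2F factors turn on genes for S phase such as the MCM genes, and cyclins A and B with CDK1 and CDK2 carry cells through S phase and mitosis. The MCM2 to MCM7 proteins form the ring-shaped helicase that opens DNA at origins. Stromal cells of the early pregnant uterus proliferate before the embryo attaches and then become polyploid as they turn into decidual cells, and several D cyclins and inhibitors are known for that step.

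The promoters on which the results turn are shown first, with short strings that mark known cell cycle elements in capitals. The sequences are RefSeq promoters of GRCm38.p6, the assembly that mm10 names, from 250 bases before to 50 bases after the start, written 5′ to 3′ on the strand of the gene. They were taken from the members in which the summits of the pooled PBRM1 and BRG1 peaks both fell inside this window. In the first 4 the capitals mark E2F strings (TTTCGCGC, TTTGGCGC or TTTCCCGC, on either strand).

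Mcm3, chr1:20820263-20820562, minus strand: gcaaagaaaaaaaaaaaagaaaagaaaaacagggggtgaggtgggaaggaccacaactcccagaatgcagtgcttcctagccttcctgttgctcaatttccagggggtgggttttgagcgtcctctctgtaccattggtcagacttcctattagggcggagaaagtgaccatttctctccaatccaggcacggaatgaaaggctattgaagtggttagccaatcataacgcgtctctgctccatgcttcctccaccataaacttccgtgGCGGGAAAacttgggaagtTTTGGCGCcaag

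Mcm5, chr8:75109259-75109558, plus strand: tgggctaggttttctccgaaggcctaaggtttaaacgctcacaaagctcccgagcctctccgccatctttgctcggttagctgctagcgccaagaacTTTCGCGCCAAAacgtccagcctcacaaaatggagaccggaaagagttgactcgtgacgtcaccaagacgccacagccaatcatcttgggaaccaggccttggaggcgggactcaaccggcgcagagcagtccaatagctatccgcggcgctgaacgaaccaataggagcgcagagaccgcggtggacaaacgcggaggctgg

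Mcm6, chr1:128359656-128359955, minus strand: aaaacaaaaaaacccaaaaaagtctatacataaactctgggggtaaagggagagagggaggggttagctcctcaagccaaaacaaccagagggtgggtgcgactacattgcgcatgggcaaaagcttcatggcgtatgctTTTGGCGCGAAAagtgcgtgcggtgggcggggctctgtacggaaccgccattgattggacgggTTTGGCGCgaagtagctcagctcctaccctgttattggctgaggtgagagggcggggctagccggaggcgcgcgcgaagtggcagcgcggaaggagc

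E2f7, chr10:110745189-110745488, plus strand: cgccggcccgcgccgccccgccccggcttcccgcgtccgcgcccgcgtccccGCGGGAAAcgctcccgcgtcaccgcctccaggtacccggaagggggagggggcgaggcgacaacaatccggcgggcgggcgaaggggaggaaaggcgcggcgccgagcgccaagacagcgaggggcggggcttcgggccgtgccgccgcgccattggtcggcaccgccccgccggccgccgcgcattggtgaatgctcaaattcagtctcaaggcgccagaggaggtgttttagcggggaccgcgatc

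In *Mcm5* and in *Mcm6*, an E2F string overlapped another E2F string on the opposite strand, so that the capitals run together. In *Mcm3* and *Mcm6* there were 2 and 3 strings. In the next pair the capitals mark E2F strings, CCAAT boxes (CCAAT) and the cell cycle homology region (CHR, TTTGAA) on either strand, the last being the element through which the MuvB complex holds mitotic genes silent in resting cells.

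Ccnb2, chr9:70421505-70421804, minus strand: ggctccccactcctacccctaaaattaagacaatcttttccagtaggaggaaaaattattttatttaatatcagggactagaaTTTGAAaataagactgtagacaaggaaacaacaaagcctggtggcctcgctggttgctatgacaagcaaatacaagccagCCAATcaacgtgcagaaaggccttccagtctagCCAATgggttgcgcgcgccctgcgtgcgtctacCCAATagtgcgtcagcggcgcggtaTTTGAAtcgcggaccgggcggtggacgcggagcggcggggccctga

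Cdk1, chr10:69352863-69353162, minus strand: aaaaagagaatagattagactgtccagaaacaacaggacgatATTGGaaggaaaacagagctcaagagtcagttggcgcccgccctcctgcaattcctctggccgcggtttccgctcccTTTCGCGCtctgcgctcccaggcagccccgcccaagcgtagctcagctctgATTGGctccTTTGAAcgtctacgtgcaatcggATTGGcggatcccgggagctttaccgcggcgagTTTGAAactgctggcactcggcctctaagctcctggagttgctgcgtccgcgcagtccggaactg

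*Ccnb2* had no E2F string, 2 CHR strings and 3 CCAAT strings. *Cdk1* had 1 E2F string, 2 CHR strings and 3 CCAAT strings. At *Ccnb2* the pooled summits lay 8 bases (PBRM1) and 40 bases (BRG1) upstream of the RefSeq start with a CHR string starting 4 bases downstream of that start and a CCAAT string 21 bases upstream of it. At *Mcm5* the summits lay 41 and 45 bases upstream, and the E2F strings 153 and 149 bases upstream. In *Mcm3* both E2F strings were downstream of the start, at 19 and 38 bases.

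RefSeq promoters were at hand for 43 of the 54 members, and E2F strings stood out among them. An E2F string was found in 11 of the 43 (25.6%), against 2.55% of 15687 protein-coding promoters of the same length. The 11 were *Mcm3*, *Mcm5*, *Mcm6*, *Mcm7* and *Mcm8*, *E2f2*, *E2f3* and *E2f7*, *Cdk1*, *Cdk2* and *Cdkn2a*. No cyclin promoter of the 5 at hand held one. A CHR string was in 7 members (16.3%) against 15.4% of all promoters, and a CCAAT string in 24 (55.8%) against 38.4%, with all 8 MCM promoters at hand among them. Over all genes with a promoter sequence, 83.2% of the 400 with an E2F string and 55.0% of the other 15287 had a promoter peak in all 6 replicates. For the CHR the shares were 38.7% with and 58.8% without the string, and for CCAAT 56.8% and 55.0%. A string match is a description of letters and not a binding site. The BRG1 summit fell inside the window of 26 of the 43 members and the PBRM1 summit inside that of 13.

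A promoter peak is a called peak within 2000 bp of any annotated transcription start site (TSS) of a gene, and nearly every member had one. The pooled lists of PBRM1 and BRG1, called on the fragments of all 3 replicates, each held a promoter peak for 54 of 54 members, against 70.2% and 73.7% of all protein-coding genes. Both antibodies together covered all 54, against 69.3% of all genes. In the separate replicates, PBRM1 peaks were called at 52, 53 and 50 members in replicates 1, 2 and 3, with 61.6%, 62.2% and 56.9% of all genes. BRG1 peaks were called at 54, 53 and 54 members, with 67.7%, 66.6% and 66.6% of all genes. A peak was present in all 6 replicates at 50 members, against 53.5% of all genes. The mean number was 51.7 ± 1.53 members for PBRM1 and 53.7 ± 0.577 for BRG1 (± SD of 3 replicates), and BRG1 was higher by 2 members without passing the test (two-sided exact permutation test, p = 0.2, where 0.1 is the smallest p that 3 against 3 can give).

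The strength of a peak was read as its rank percentile, the place of its q-value among all peaks of its own list, with 100 for the strongest, because the lists differ in depth and length. The replicates rested on 8868777 to 16505239 fragments and held 21912 to 40610 peaks, with the fewest peaks in the most deeply sequenced PBRM1 replicate. At the strongest promoter peaks of the members, the pileup at the summit had a median of 28 to 50.5 fragments per replicate and reached down to 8, so that the weak peaks rest on few fragments. The members' median percentile was 75.6, 78.7 and 80.4 in PBRM1 replicates 1, 2 and 3, and 72.5, 75.5 and 73.2 over all genes with a promoter peak. In BRG1 it was 89.2, 86.6 and 84.4, and 82.8, 81.4 and 81.6 over all genes. The members thus lay above all genes in 6 of 6 replicates, by 4.48 ± 2.35 points in PBRM1 and 4.81 ± 1.88 points in BRG1 (SD, n = 3 each).

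**Figure D1:**
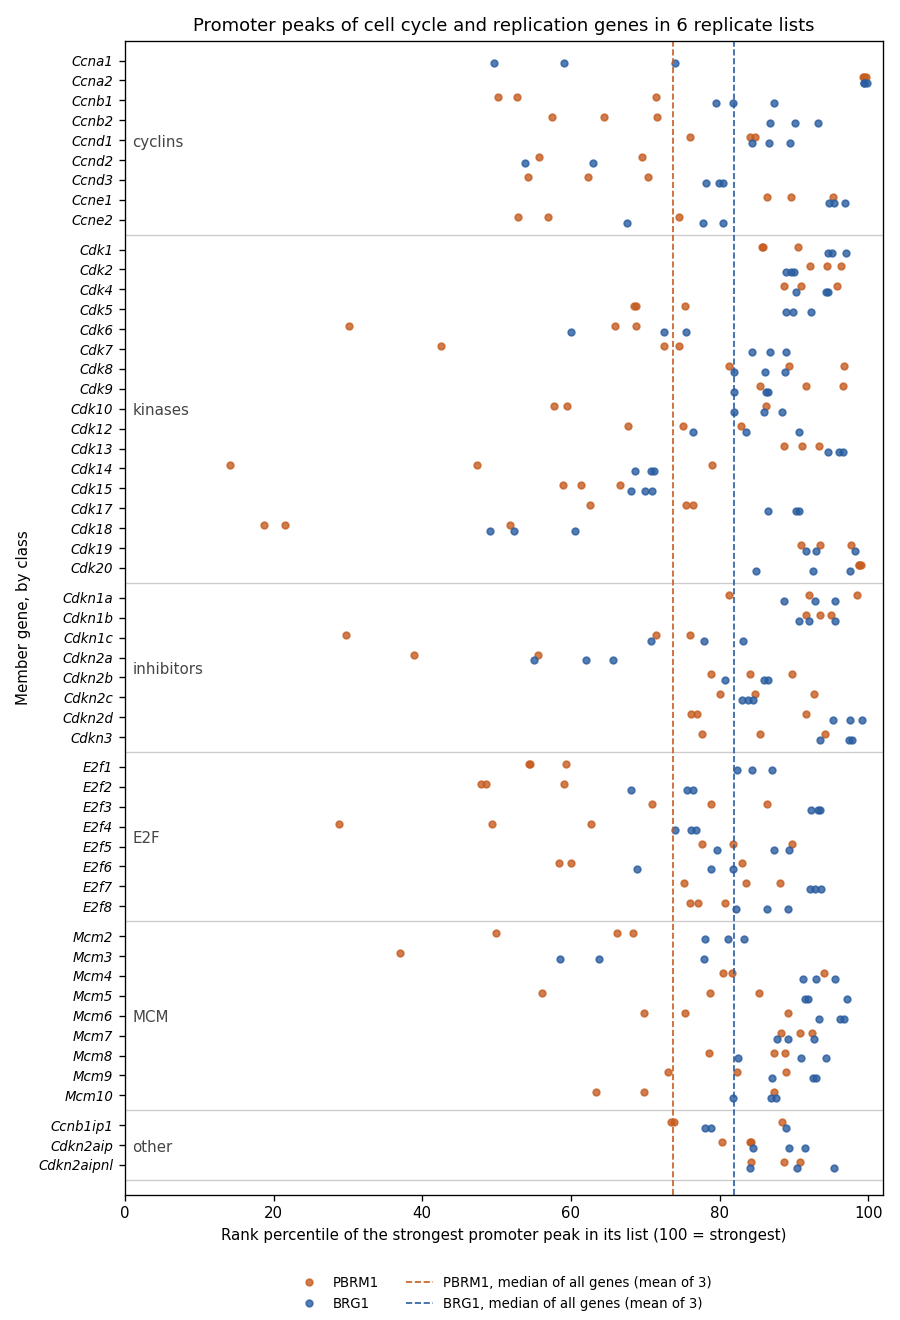
Rank percentile (x axis, 100 = strongest) of the strongest promoter peak of each member (y axis, grouped by class) in the 3 PBRM1 (orange) and 3 BRG1 (blue) replicates, with dashed lines at the mean over replicates of the median of all genes. *Ccna2* sits above 99 in every list. *Cdk14*, *Cdk18*, *E2f4*, *Cdkn1c*, *Cdk6*, *Mcm3* and *Cdkn2a* spread down to between 14.2 and 38.9 in at least 1 PBRM1 replicate.

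BRG1 peaks of the members ranked higher in their lists than PBRM1 peaks, with a mean of the replicate medians of 86.7 ± 2.41 against 78.2 ± 2.45 (± SD of 3 replicates, exact permutation test on both sides, p = 0.1, which is the lowest that this design allows). The same difference was found over all protein-coding genes, at 81.9 ± 0.740 against 73.8 ± 1.54. The gap between members and all genes differed by only 0.334 points between the antibodies (exact permutation test, p = 1). The BRG1 lists are also longer, with 36656 to 40610 peaks against 21912 to 26363, so that ranks taken among the genes alone, here called gene ranks, were read as well. Ranked among the genes with a promoter peak in each list, the members' median was 57.6 with PBRM1 and 62.1 with BRG1 (exact permutation test, p = 0.2), a smaller difference than by list percentile. For single genes the gene rank below is the rank among the 11134 genes with a promoter peak in all 6 replicates. On that rank the median of the members' differences (BRG1 minus PBRM1) was -1.59 points, against 8.90 by list percentile. Over the 11134 genes the medians were -0.400 and 8.65, so that the sign changed between the scales in both.

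The classes were not alike in rank. The cyclin and E2F genes had the lowest PBRM1 medians, at 71.5 ± 0.566 and 70.3 ± 2.56, and lay below the kinases (81.0 ± 5.78) and the inhibitors (83.3 ± 3.63) in each of the 3 PBRM1 replicates (SD over 3 replicate medians). The MCM genes varied most between the PBRM1 replicates, at 71.4, 78.6 and 86.4, the lowest of the 5 classes in replicate 1 and the highest in replicate 3. In BRG1 the MCM genes had the highest mean, at 90.0 ± 1.91, above the cyclins (84.3 ± 2.79) and the E2F genes (84.5 ± 3.11) in each replicate, whereas kinases (88.0 ± 1.47) and inhibitors (88.3 ± 1.99) were nearer. Against all genes, the MCM median was higher by 8.05 ± 1.87 points in BRG1 and by 5.03 ± 7.31 points in PBRM1, where 1 of the 3 replicates was below. The cyclins were below all genes in all 3 PBRM1 replicates, by a mean difference of -2.23 ± 2.09 points, and above in all 3 BRG1 replicates, by 2.35 ± 2.17. Genes are not replicates, so no test was made between classes.

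Among the cyclins, *Ccna2* had the strongest promoter peak of all members. Cyclin A2 is the partner of CDK2 in S phase and of CDK1 later on. Its percentiles were 99.7, 99.3 and 99.5 in PBRM1 and 99.9, 99.4 and 99.5 in BRG1, with a fold enrichment over the local background of 15.0 ± 2.78 in PBRM1 and 17.7 ± 1.50 in BRG1 (SD, n = 3 each). The pooled BRG1 peak was at chr3:36571651-36572359 and its summit lay 18 bp downstream of the nearest TSS, with the PBRM1 summit 3 bp away. *Ccna1*, the cyclin A of the male germ line, was at the other end. No PBRM1 replicate had a peak there, all 3 BRG1 replicates did at percentiles of 74.1, 49.7 and 59.1, and the pooled PBRM1 list held 1.

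The B cyclins, which start mitosis with CDK1, had higher list percentiles with BRG1 than with PBRM1. At *Ccnb1* the PBRM1 percentiles were 52.7, 71.4 and 50.2 and the BRG1 percentiles 87.3, 79.5 and 81.9. *Ccnb2* had PBRM1 percentiles of 57.5, 64.5 and 71.6 and BRG1 percentiles of 93.2, 86.8 and 90.1. The antibodies did not overlap at either gene by list percentile. By gene rank the separation held at *Ccnb2* and not at *Ccnb1*, where PBRM1 reached 35.1 and BRG1 went down to 33.8. At *Ccnb2* the fold enrichment was 7.15 ± 0.325 in PBRM1 and 13.7 ± 1.03 in BRG1.

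The E cyclins bring CDK2 into action at the start of S phase. *Ccne1* was strong in all lists, at 86.4, 95.3 and 89.6 in PBRM1 and 94.8, 96.9 and 95.4 in BRG1, whereas *Ccne2* was the lowest cyclin with a peak in all 6 replicates. Its percentiles were 74.6, 56.9 and 52.8 in PBRM1 and 80.4, 77.8 and 67.5 in BRG1.

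The D cyclins differed from each other in where their peaks lay. *Ccnd1* had percentiles of 76.0 to 84.8 in PBRM1 and 84.4 to 89.4 in BRG1, but its strongest peak lay upstream, with pooled summits at -1642 bp (PBRM1) and -1607 bp (BRG1) from the nearest TSS, at chr7:144941183-144941863 for BRG1. No replicate or pooled list had a peak over a *Ccnd1* TSS, and it was the only member of which this was true in the pooled lists, where 53 of 54 members had a peak over a TSS against 60.6% (PBRM1) and 64.9% (BRG1) of all genes. Weaker pooled *Ccnd1* peaks had summits 133 bp (PBRM1, 3.75-fold) and 135 bp (BRG1, 2.81-fold) downstream of the nearest TSS. They overlapped a peak in 0 PBRM1 replicates and 1 BRG1 replicate. *Ccnd2* lacked a promoter peak in PBRM1 replicate 3 and in BRG1 replicate 2. In the other replicates its fold enrichment was 5.62 and 4.02 in PBRM1 and 3.89 and 3.67 in BRG1. *Ccnd3*, the D cyclin tied to polyploid decidual cells, had a fold enrichment of 4.94 ± 0.787 in PBRM1 and 5.88 ± 0.323 in BRG1 at its promoters. Its strongest pooled peaks lay at an internal start, with summits 88287 bp (PBRM1) and 88443 bp (BRG1) downstream of the 5′ end. The pooled fold enrichment there was 4.78 and 5.83, against 3.42 and 4.14 at the 5′ end.

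All 17 kinases had a promoter peak in all 6 replicates. *Cdk20*, a kinase with roles in the cell cycle and in cilia, had the highest mean percentile of the class, with 98.8, 99.1 and 98.8 in PBRM1 and 97.5, 84.8 and 92.6 in BRG1. Every PBRM1 replicate ranked above every BRG1 replicate there. *Cdk18*, of the PCTAIRE group of kinases, was the lowest of all members with a peak in every replicate, at 51.8, 21.6 and 18.8 in PBRM1 and 52.4, 60.6 and 49.1 in BRG1.

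Of the kinases at the centre of the cycle, *Cdk1*, *Cdk2* and *Cdk4* were strong and *Cdk6* was not. *Cdk1*, the kinase of mitosis, had percentiles of 85.8, 85.7 and 90.5 in PBRM1 and of 97.0, 94.7 and 95.1 in BRG1, which did not overlap. *Cdk2*, the S phase kinase, went the other way, with 94.5, 96.4 and 92.2 in PBRM1 and 90.0, 89.6 and 88.9 in BRG1. *Cdk4* was at 95.7, 88.7 and 90.9 in PBRM1 and 94.3, 90.3 and 94.6 in BRG1, and *Cdk6*, the other D cyclin partner, was below the all-gene median of its list in 6 of the 6 replicates. Its percentiles were 65.9, 68.8 and 30.2 in PBRM1 and 60.0, 72.5 and 75.5 in BRG1.

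Of the inhibitors, 7 of 8 had a peak in all 6 replicates. *Cdkn1b*, which encodes p27 and holds cyclin E with CDK2 in check, had the highest mean of the class, with percentiles of 95.0, 93.6 and 91.6 in PBRM1 and 95.5, 92.0 and 90.7 in BRG1. *Cdkn1a*, encoding the p53 target p21, had 92.1, 81.2 and 98.5 in PBRM1 and 95.6, 88.6 and 92.9 in BRG1. Its peaks were the widest of the 54 members, 2284 bp in the pooled PBRM1 list and 2191 bp in the pooled BRG1 list, at chr17:29093535-29095725. They covered a group of starts 2793 bp downstream of the first annotated *Cdkn1a* TSS, and none of the 8 lists had a peak within 2000 bp of that first TSS. *Cdkn1c*, encoding p57, was the lowest of the class with a peak in every replicate, at 71.5, 29.7 and 76.1 in PBRM1 and 83.1, 78.0 and 70.7 in BRG1.

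The *Cdkn2a* and *Cdkn2b* genes are neighbours on chromosome 4. *Cdkn2a* gives rise to p19ARF from an upstream start and to p16INK4a from a start 12461 bp further down, and both brake the cycle in aging and stressed cells. At the upstream start a peak was called in 2 PBRM1 replicates and in 3 BRG1 replicates, with a fold enrichment of 6.50 and 5.16 in PBRM1 replicates 1 and 2 and a mean of 6.41 ± 0.573 in BRG1 (SD, n = 3). At the downstream start no PBRM1 replicate and 1 BRG1 replicate had a peak, of 4.54-fold. *Cdkn2b*, encoding p15INK4b, had peaks in all 6 replicates, with a fold enrichment of 9.56 ± 2.31 in PBRM1 and 10.3 ± 0.939 in BRG1. Its percentiles of 78.8 to 89.7 lay above those of the upstream *Cdkn2a* start, 38.9 to 65.7, in each of the 5 replicates in which the latter was called.

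All 8 E2F genes had a promoter peak in all 6 replicates, and 6 of the 8 had every BRG1 percentile above every PBRM1 percentile, as had 39.8% of the 11134 genes with a peak in all 6 replicates. By gene rank only 1 of the 8, *E2f1*, kept that separation. *E2f7*, a repressor that acts late in S phase, had the highest mean, with PBRM1 percentiles of 75.2, 83.5 and 88.1 and BRG1 percentiles of 92.1, 92.9 and 93.6. *E2f1*, an activator of S phase genes, had 54.5, 59.3 and 54.3 in PBRM1 and 82.4, 87.1 and 84.4 in BRG1. *E2f3*, also an activator, had 70.9, 78.9 and 86.4 in PBRM1 and 92.2, 93.3 and 93.5 in BRG1. *E2f4*, the main E2F of resting cells, was the lowest of the class and had the largest difference in list percentile among the 50 members with a peak in all 6 replicates, 28.7 points, with 28.8, 62.7 and 49.5 in PBRM1 and 74.0, 76.1 and 76.8 in BRG1. By gene rank the difference at *E2f4* was 9.13 points and the antibodies overlapped. The gene has another start 6262 bp downstream of the first, and both starts had a peak within 2000 bp in all 6 replicates. In the pooled lists the peak assigned to the downstream start lay past the 3′ end of *E2f4*. Its summits were 1767 bp (PBRM1) and 1808 bp (BRG1) from that start. In the pooled PBRM1 list the percentiles of these peaks were close, 71.3 at the first starts and 73.5 at the downstream start, where the summit was closer to *Elmo3*. Which start had the stronger peak differed between replicates of both antibodies. The percentiles above for PBRM1 replicates 1 and 2 and BRG1 replicate 3 were those of the downstream peak. At the first starts they were 23.1, 33.3 and 68.2, so that the list percentile difference at *E2f4* mixes peaks of both places. At the first group of starts alone the fold enrichment was 4.47 ± 0.219 in PBRM1 and 7.27 ± 0.587 in BRG1 (SD, n = 3 each).

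The MCM genes had BRG1 peaks in all 3 replicates at 9 of 9 members and PBRM1 peaks in all 3 at 8 of 9, counts without a share of all genes beside them. A peak in all 6 replicates was found at 8 of the 9, against 53.5% of all genes. The exception was *Mcm3*, a subunit of the helicase ring, whose PBRM1 peak was called in replicate 2 only, at a percentile of 37.0, beside BRG1 percentiles of 58.5, 63.7 and 77.9. *Mcm5* and *Mcm6*, further subunits of the ring, had higher list percentiles with BRG1. *Mcm5* was at 56.1, 78.7 and 85.4 in PBRM1 and 97.1, 91.9 and 91.4 in BRG1, and *Mcm6* at 69.8, 75.4 and 89.2 in PBRM1 and 96.7, 96.2 and 93.3 in BRG1. The antibodies did not overlap at either by list percentile, but they did at both by gene rank, as at every MCM gene ranked. *Mcm7* had the highest mean of the class and no such difference, at 88.3, 92.4 and 90.9 in PBRM1 and 89.2, 92.7 and 87.8 in BRG1. *Mcm2* was the lowest of those with a peak in every replicate, at 50.0, 68.4 and 66.3 in PBRM1 and 78.1, 83.3 and 81.1 in BRG1, and *Mcm4* was at 81.6, 94.1 and 80.5 in PBRM1 and 95.5, 91.2 and 93.0 in BRG1. The start of *Mcm4* is shared with that of *Prkdc*, and that of *Mcm7* with that of *Ap4m1*, so that peaks there cannot be given to 1 gene.

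**Figure D2:**
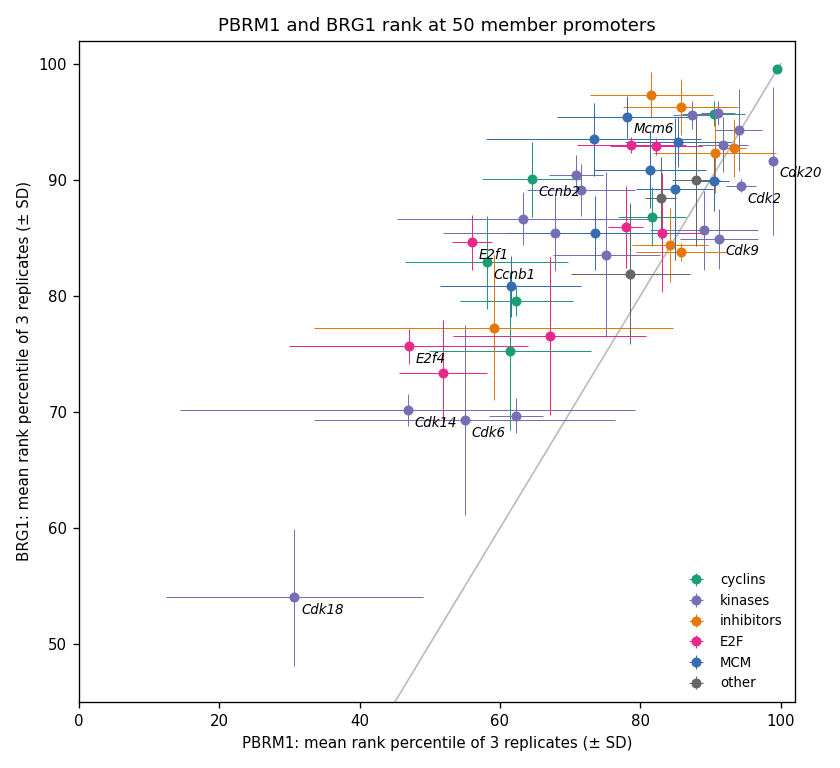
Mean rank percentile of PBRM1 (x axis) against BRG1 (y axis) at the 50 members with a promoter peak in all 6 replicates, coloured by class, with bars of 1 SD over 3 replicates and the line of equal rank. Most members, 43 of 50, lie above the line (a count without a share of all genes beside it), and *Cdk20*, *Cdk2* and *Cdk9* lie below it. The median difference (BRG1 minus PBRM1) was 8.90 points at these members and 8.65 over the 11134 genes with a peak in all 6.

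The antibodies separated at about the same share of members as of all genes. Among the 50 members with a peak in all 6 replicates, every BRG1 percentile was above every PBRM1 percentile at 20 (40.0%), against 39.8% of the 11134 genes with a peak in all 6. The reverse held at 2 members, *Cdk20* and *Cdk2* (4.00%), against 2.77% of those genes. When genes were ranked among these 11134 genes instead, which sets the list length aside and was chosen after the values were seen, 7 members had BRG1 above and 7 had PBRM1 above, each 14.0%, against 12.6% and 13.4% of all genes. The split between the antibodies thus differed between the scales, and the shares of members were near those of all genes on both.

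By the gene rank, *Ccnb2*, *Cdk1*, *Cdk5*, *Cdk7*, *Cdk17*, *Cdkn2d* and *E2f1* had BRG1 above, and *Cdk2*, *Cdk8*, *Cdk9*, *Cdk15*, *Cdk20*, *Cdkn2b* and *Cdkn2c* had PBRM1 above. *Ccnb2* had the largest mean difference toward BRG1, 34.7 points, and *Cdk9*, the kinase that releases paused RNA polymerase, the largest toward PBRM1, at -33.5 points (BRG1 minus PBRM1). *Cdk15* changed sides between the scales, with BRG1 above on the list percentile. The 9 members with an E2F string and a peak in all 6 replicates had a median difference of 12.9 points, and the 31 members without one had -2.47, with a range of the former from -25.2 to 30.9. For the CHR the medians were 12.9 (7 members with the string) and -3.20 (33 without), and for CCAAT 8.25 (22 with) and -6.52 (18 without). The 12.9 of both E2F and the CHR was the value of 1 gene, *Cdk1*, which carries all 3 strings, so that these splits are not independent. Members without an E2F string ranged from -33.5 to 34.7, as did those with a CCAAT string, and members without a CHR string from -33.5 to 30.9. Members with and without each string thus overlapped. Over all genes the medians were 1.03 and -0.283 for E2F, -0.334 and -0.226 for the CHR and 0.996 and -1.04 for CCAAT. Across the 50 members the mean percentiles of the antibodies were related with a Spearman's rho of 0.705, and across the 11134 genes with 0.820, a description of points that share libraries and local sequence.

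Peaks of the members sat about as close to their starts as those of all genes. The strongest pooled BRG1 summit lay a median of 89 bp from the nearest TSS, and 46 of 54 (85.2%) were within 250 bp, against 77.1% over all genes with a promoter peak. For PBRM1 the median was 101 bp and 40 of 54 (74.1%) were within 250 bp, against 74.8%. Over all genes with a promoter peak, the medians were 90 and 117 bp. The pooled summits of both antibodies were within 150 bp of each other at 39 members, a count without a share of all genes beside it. Summits over 1000 bp from a TSS were found at *Ccnd1* and *Cdkn1a* with both antibodies and at *E2f4* with PBRM1. The pooled BRG1 peak was within 2000 bp of a TSS of another protein-coding gene at 8 members, and its summit was nearest to a TSS of that gene at 5, *Cdk2* (*Pmel*), *Cdk5* (*Slc4a2*), *Mcm8* (*Trmt6*), *Mcm9* (*Asf1a*) and *Ccnb1ip1* (*Parp2*).

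**Figure D3:**
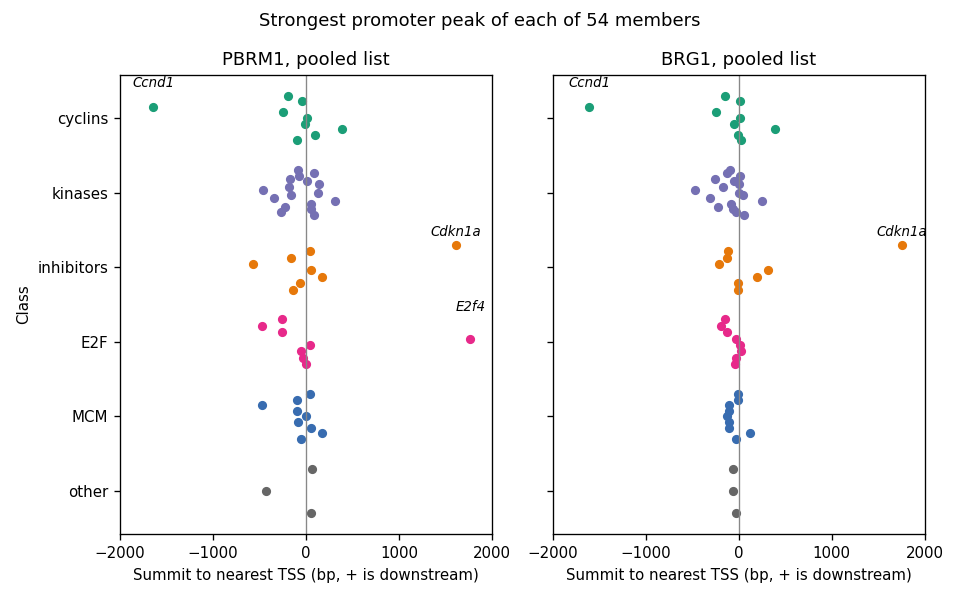
Distance in bp (x axis, positive is downstream) from the summit of the strongest promoter peak to the nearest TSS for each of the 54 members, by class (y axis), in the pooled PBRM1 list (left) and the pooled BRG1 list (right). Most summits lie within 250 bp of a start, and the named genes lie over 1000 bp away.

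Distal peaks differed far more between members than promoter peaks did. A distal peak here is a pooled peak over 2000 bp from any protein-coding TSS, given to the gene of the nearest such TSS. At least 1 was found for 35 members with PBRM1 and 38 with BRG1 (64.8% and 70.4%), against 47% and 55.2% of all genes. There were 153 PBRM1 and 207 BRG1 distal peaks at members in all, of which 14 and 39 overlapped a peak in all 3 replicates of the antibody. This was 9.15% and 18.8%, against 8.32% and 13.0% over all genes. Most of these distal peaks were thus called in the pooled lists and not in each replicate, which limits what single peaks can show. The gene that such a peak acts on was not measured.

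*Cdkn1c* had the most, with 20 BRG1 and 15 PBRM1 distal peaks, of which 7 and 1 were found in all 3 replicates. They reached to 165327 bp downstream of its 5′ end, and none lay inside *Cdkn1c*. Starts of noncoding genes and the bodies of other genes were not considered when these peaks were given to *Cdkn1c*. The strongest by fold, at chr7:143388799-143389694 and 71704 bp downstream, had an 11.1-fold enrichment in the pooled BRG1 list. *Cdk14* had 17 BRG1 and 9 PBRM1 distal peaks. Its strongest, an 11.3-fold BRG1 peak found in all 3 replicates at chr5:4825995-4826257, lay inside the gene, 594123 bp downstream of the 5′ end.

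*Cdk17* had 14 BRG1 and 7 PBRM1 distal peaks, and *Cdk15* and *Ccnd3* had 11 BRG1 peaks each, as many as *Cdkn3*. At *Ccnd3* all 11 lay inside the gene, between its 5′ end and the internal start that had the strongest promoter peak. The strongest of the 11 was at chr17:47511057-47511662, 6245 bp downstream of the 5′ end. Fold enrichment there was 8.96 in the pooled BRG1 list and 6.42 in the pooled PBRM1 list. Both peaks were found in all 3 replicates of their antibody. In contrast, the 9 MCM genes had 9 BRG1 distal peaks between them, 5 of these at *Mcm9*, and *Mcm3*, *Mcm4*, *Mcm6*, *Mcm7*, *Mcm8* and *Mcm10* had none of BRG1. *Ccna2*, *Ccnb1*, *Cdk2* and *Cdk4*, all with a promoter peak in every replicate, also had no distal peak of either antibody. Over all genes the number of BRG1 distal peaks had a median of 1 and a mean of 2.76 per gene. Only 55.2% of all genes had at least 1, so that having none was common. Gene length and the space between genes differ among these genes, and their part in the counts was not tested.

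**Figure D4:**
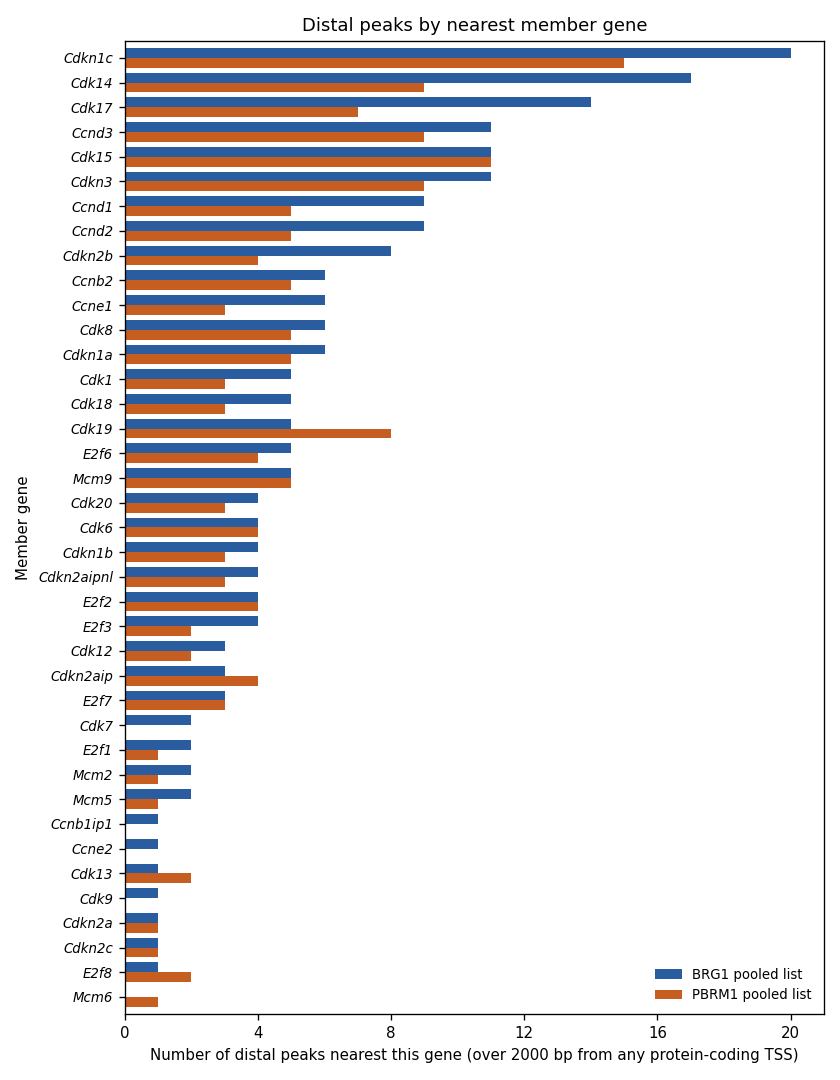
Number of distal peaks (x axis, over 2000 bp from any protein-coding TSS) in the pooled BRG1 (blue) and PBRM1 (orange) lists for the members (y axis) that have at least 1. *Cdkn1c* leads with 20 BRG1 and 15 PBRM1 peaks, and 5 members hold 35.3% of the BRG1 peaks.

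**Figure D5:**
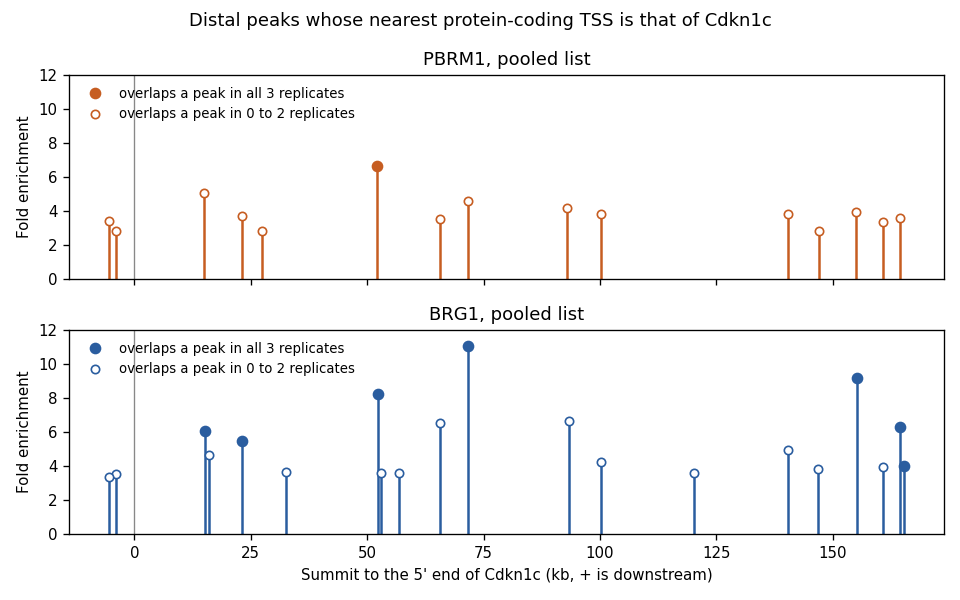
Fold enrichment over the local background (y axis) of the distal peaks nearest to *Cdkn1c*, by distance in kb from its 5′ end (x axis, positive is downstream), in the pooled PBRM1 list (top) and the pooled BRG1 list (bottom). Filled points overlap a peak in all 3 replicates of the antibody (1 of 15 for PBRM1 and 7 of 20 for BRG1).

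Genes that work with the members were read from 7 lists of 68 genes, of which 67 lie on chromosomes 1 to 19. A promoter peak in all 6 replicates was found at 63 of the 67 (94.0%), close to the share of the members and above the 53.5% of all genes. All 10 genes of helicase activation, all 16 of the replication fork and all 7 of MuvB and mitotic transcription had one. The same was true of 9 of 10 genes of origin licensing, 4 of 5 RB and DP partners of E2F, 6 of 7 CDK phosphatases and inhibitory kinases and 11 of 12 mitosis genes. The 4 that lacked one were *Mcmbp*, *Tfdp1*, *Cdc25c* and *Bub1b*, each with a peak in 2 PBRM1 and 3 BRG1 replicates. Origin licensing had the highest mean of the replicate medians in both antibodies, 89.2 ± 2.14 in PBRM1 and 95.1 ± 0.626 in BRG1, although in PBRM1 replicate 1 its 88.8 was below the replication fork (89.9) and helicase activation (89.8).

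Markers of other cell types were read in the same lists, since the preparation can hold other cells. A promoter peak in all 6 replicates was found at 6 of 8 stromal markers (not *Hoxa11* and *Col1a1*), 1 of 6 epithelial markers (*Krt7*), 1 of 3 endothelial markers (*Kdr*), 1 of 2 smooth muscle markers (*Des*) and 0 of 4 leukocyte markers. The share over all genes was 53.5%. In the pooled lists the stromal and epithelial markers all had a peak, 8 of 8 and 6 of 6, and the leukocyte markers had none. The shares of all genes there were 70.2% (PBRM1) and 73.7% (BRG1). The epithelial medians were lower than the stromal ones, 57.2 ± 0.682 against 66.2 ± 7.33 in BRG1, but close in BRG1 replicate 2 (57.5 and 57.8). Both means lay below the BRG1 mean over all genes with a promoter peak, 81.9. A peak is not a measure of expression, and the part of other cells in the members' peaks was not tested. In these bulk libraries, fewer cells with a bound promoter and less binding per cell cannot be told apart. The lists name no control file, and the part of open chromatin alone in these promoter peaks was not tested.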

How the data were processed

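ChIC-Seq peak lists of PBRM1 and BRG1 in WT D4 mUSCs were used, 3 replicates and 1 pooled list per antibody. Per the methods and the file headers, the authors aligned read pairs to mm10 with Bowtie2 and called peaks with MACS 2.2.7.1 at a q-value of 0.05 against the local background over up to 10000 bp, without a control. Submitters' processing notes name GRCm38.p5. Each deposited list gives a pileup signal, the fold enrichment ratio and −log10 of the q-value, as the authors' caller wrote them. Strength was compared between the antibodies by ranks within a list. Fold enrichments and numbers of peaks are given as called, with no scaling between lists.

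From these lists, peaks within 2000 bp of a TSS of the full GENCODE M21 annotation were assigned to genes, with the lowest q-value taken, in Python 3.11.15 (numpy 2.4.6, pandas 2.3.3, scipy 1.17.1, matplotlib 3.10.9). Percentiles are mid-ranks. Antibodies were compared with two-sided exact permutation tests over replicates. Strings were searched in 1 RefSeq promoter per gene, the one nearest the 5′ end, and all 6 printed promoters matched the genome at their coordinates. Counting was checked on simulated peaks. The 2 IgG libraries were not analysed here. Replicate depth was 8868777 to 16505239 fragments.

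The members, gene lists, markers and tests were chosen with earlier results of these data known. Named were core members by function, the highest and lowest member of each class, members without a peak in some replicate, those with the largest differences between the antibodies and the 5 with the most distal BRG1 peaks. Others named were chosen after their values were seen. Alternatives were other promoter distances and starts, stricter peaks, other rankings, distal peaks inside genes or in all 3 replicates, a shorter promoter window, the replicate number as a block and each replicate left out.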

Additional observations from a re-analysis of the deposited data

How the results depend on the processing

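Of 65 values recomputed under alternatives, none reversed, and 58 kept their direction and, for counts, stayed within 1.5 times of the value reported. The median difference by gene, which changed sign with the gene rank, was not among the 65. With distal peaks limited to those inside the gene, 16 members had one with PBRM1 and 20 with BRG1, and with those found in all 3 replicates, 13 and 23. In the last 150 bases of the promoters, 7 of 43 members (16.3%) held an E2F string, against 1.34% of all promoters. Ranked among genes, the antibodies did not overlap at 7 members with BRG1 above and 7 with PBRM1 above, as the report gives, an alternative chosen after the data were seen. With a fold enrichment of at least 5, 36 members had a promoter peak in all 6 replicates, and with only the 5′ end of each gene as its start, 45. Shares of all genes under these settings, and for the limited distal peaks, are not given. These counts of members thus cannot be set against all genes. At that fold enrichment BRG1 exceeded PBRM1 by 7.33 members per replicate (exact permutation test, p = 0.1). Ranked among genes with a promoter peak, also chosen after the data were seen, the members' median was 57.6 with PBRM1 and 62.1 with BRG1 (exact permutation test, p = 0.2). The cause of these shifts was not tested.

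Without 1 replicate at a time, the difference in members with a promoter peak (BRG1 minus PBRM1) was 1.17 to 2.67, the difference in median percentile 7.18 to 9.66, members with a peak in all remaining replicates 50 to 51, and members with a pooled peak of both antibodies that was found in each remaining replicate of the antibody concerned 50 to 54. Leaving out 1 of 6 replicates allows no p below 0.2. With the replicate number as a block, the difference was 2 members (exact paired permutation test, p = 0.5) and the difference in median percentile had p = 0.25, the smallest that 3 pairs allow. The same-numbered replicates did not deviate together across 11134 genes, with correlations of -0.00804, -0.0111 and 0.0140. Pairs with different numbers had -0.0167 to 0.0289. These values cannot show whether same-numbered replicates came from the same mice or preparations, which the labels do not give.

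Weak peaks rest on few fragments. A promoter peak that was not called in some replicates, as at *Ccnd2*, *Cdkn2a* and *Mcm3*, is not shown to be absent there. The PBRM1 peaks of all 3 genes were missing in replicate 3, the library with the most fragments but the fewest peaks. Its median fold enrichment over all genes was 5.75, against 7.55 and 6.81 in PBRM1 replicates 1 and 2. At *Mcm3* the peak was also missing in PBRM1 replicate 1, the library with the fewest fragments. The part of depth was not tested.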

Other observations

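The symbol rule matched 5 further genes that are on the X chromosome or are pseudogenes. *Cdk16*, a kinase on chromosome X, had a promoter peak in 2 PBRM1 replicates, at 8.19 and 4.68-fold in replicates 1 and 2, and in all 3 BRG1 replicates, with a mean of 7.32 ± 1.08 (SD, n = 3). *Ccnb3*, also on X and known from meiosis, had no promoter peak in any of the 8 lists. The pseudogenes *Ccnb1-ps* and *Ccnb2-ps* had none either, and *Ccnd3-ps* had one in 2 BRG1 replicates, at 4.90 and 3.65-fold in replicates 1 and 3. Reads of such copies can be hard to place, and whether this touched these values was not tested.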
